A study of Rattus rattus with 23 samples.

Results

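Enzymes that conjugate, oxidise or hydrolyse foreign compounds were described in nasal respiratory epithelium of rats that had breathed hydrogen sulfide (H2S), an irritant gas and inhibitor of mitochondrial respiration, or air. The members were the 73 genes, of 14218 genes on the array with a probe set naming that gene alone, whose symbol begins with Gsta, Gstm, Gstp, Gstt, Gsto, Gstk, Mgst, Ugt1, Ugt2, Sult, Fmo, Ephx, Ces or Aldh (for Fmo and Ces, before a digit). They had 84 of the 31099 probe sets, and each gene was represented by its probe set with the highest mean signal. Members were picked by symbol and not by a measured difference between groups, though with earlier results of these data known.

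The series holds 23 Affymetrix Rat230_2 arrays, each with RNA of 1 male Sprague-Dawley rat, from epithelium captured by laser at the injured and regenerating site. Rats were 10 weeks old by the design text and 60 days old by their labels, and breathed nose-only 200 ppm H2S, or air, for 3 h a day. H2S rats were sampled 3 h (n = 4), 6 h (n = 3) and 24 h (n = 4) after the initial exposure, with no repeat, or at 144 h (n = 4) with 5 daily exposures. Air rats were sampled at 24 h (n = 4) and at 144 h (n = 4, 5 daily sessions), so the 3 h, 6 h and 24 h comparisons share the same air animals, and the first 2 of them differ from air in time as well as in exposure. The treatment field of animals 6 (H2S, 3 h), 14 (H2S, 24 h) and 18 (air, 24 h) gives 5 days where their titles give a time of 1 day or less, and titles were followed. Air animals' labels also list the 200 ppm dose, and the organism field reads Rattus rattus although the strain is Sprague-Dawley. Nothing in the labels pairs animals.

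Xenobiotic metabolism is usually described in stages, in which a compound is first oxidised, reduced or hydrolysed and then joined to a water-soluble group for export. Glutathione S-transferases (GST) join glutathione to electrophiles, UDP-glucuronosyltransferases (UGT) add glucuronic acid and sulfotransferases (SULT) add sulfate. Flavin-containing monooxygenases (FMO), epoxide hydrolases (EPHX), carboxylesterases (CES) and aldehyde dehydrogenases (ALDH) act on nitrogen and sulfur compounds, epoxides, esters and aldehydes. The nasal mucosa is known for a high capacity for such reactions on inhaled compounds, and several ALDH enzymes instead serve amino acid, folate or retinoid metabolism.

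Of the 73 genes, 47 were above the median signal of their own array on at least 3 of the 23 arrays and were tested, and 26 were not. These 26 are named only, with a log2 signal between 4.03 and 9.83 in single animals, where values are log2(signal + 16) and a signal of 0 gives 4. The families differed in how many members reached this level. All 3 microsomal GST genes, all 4 FMO genes, Gstk1 and 16 of 17 ALDH genes were tested. Of the GST classes, 3 of 4 alpha, 5 of 7 mu, 1 of 2 pi, 2 of 3 theta and 1 of 2 omega genes were. No UGT gene of 8 was above the median on more than 1 array. All 8 have Ugt2 symbols and no Ugt1 gene was among the members, so nothing is shown for the Ugt1 genes. The 6 probe sets that list a member symbol beside other symbols were not used. Of the remaining families, 6 of 14 SULT, 2 of 3 EPHX and 3 of 5 CES genes were tested.

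**Figure D1:**
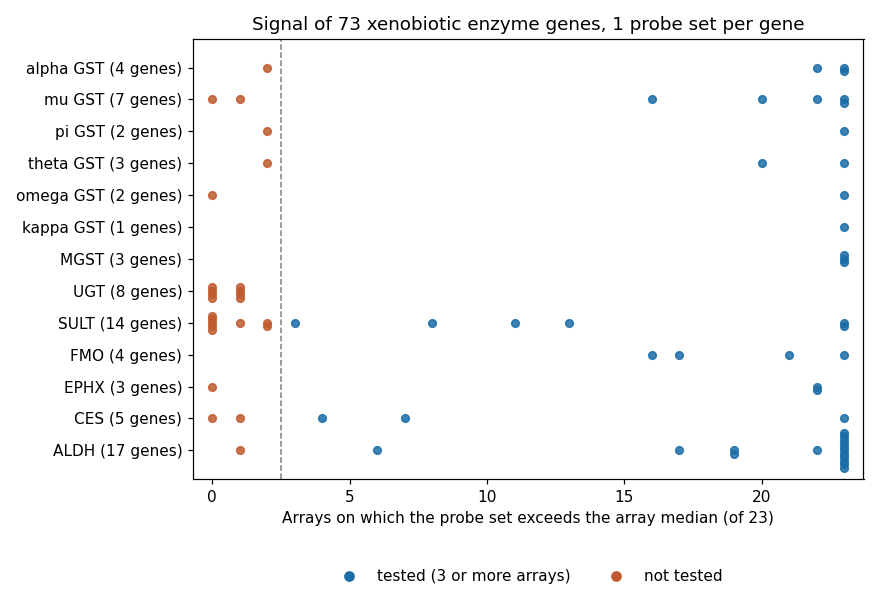
Each point is 1 of the 73 genes, placed by the number of the 23 arrays on which its probe set exceeded the array median (horizontal axis) and by enzyme family (vertical axis). The dashed line marks the minimum of 3 arrays: all 8 UGT genes lie left of it, and 26 genes lie at 23 arrays.

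The genes not tested were Gsta3l1, Gstm3, Gstm6l, Gstp3, Gstt1, Gsto2, Ugt2a1, Ugt2b, Ugt2b1, Ugt2b10, Ugt2b15, Ugt2b34l1, Ugt2b35, Ugt2b7, Sult1b1, Sult1e1, Sult2a1, Sult2a2, Sult2a6, Sult2b1, Sult4a1, Sult6b2, Ephx4, Ces1c, Ces5a and Aldh1b1. Ugt2a1, a glucuronosyltransferase of the olfactory mucosa, was above the median on 0 arrays and ranged from 4.16 to 7.14. Sult1e1, the oestrogen sulfotransferase, ranged from 4.17 to 9.43, above the median on 2 arrays. Just inside the filter lay Sult1d1 with 3 arrays and Ces2c with 4, and just outside it Gsta3l1, Gstp3, Gstt1, Sult1e1 and Sult2b1 with 2 each.

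Arrays of 2 air animals stood apart. Animal 18 (air, 24 h) had a median correlation with the other arrays of 0.408 and animal 22 (air, 144 h) of 0.685, against 0.820 to 0.900 for the remaining 21 arrays. Cartilage markers reached a level of 3.37 in animal 19 (air, 144 h), against -2.71 to 0.11 in the 22 others. Of the markers measured, 8 of 8 ciliated cell, 6 of 7 basal cell, 8 of 10 secretory and 8 of 8 stroma and vessel markers were tested. The lists named 12 ciliated cell and 9 stroma and vessel markers, and those not measured are left out. Over all arrays the stroma and vessel level, relative to the mean over every gene, ranged from 3.19 to 4.79. That of ciliated cells ranged from 0.10 to 3.36, of basal cells from -0.55 to 3.17 and of secretory cells from -0.72 to 1.90. The captured tissue thus also held stromal RNA, and lists are not ranked by level because their probes differ. Of 10 olfactory markers measured (13 listed) 6 were tested. Gap43 was above the median on 23 arrays, Adcy3 on 21, Cyp2g1 on 20, Gnal on 10, and Omp and Cnga2 on 3 each. Of those not tested, Gng13 was above it on 1 array and Cnga4, Ncam2 and Ano2 on 0. None of 4 squamous markers measured (6 listed) was tested. In such captured tissue, fewer cells of a type and less RNA per cell cannot be told apart.

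No member passed the test (limma, Benjamini-Hochberg adjusted p under 0.05 over all 19822 probe sets tested) in any of 8 comparisons, nor in the F test for any difference among the 6 groups. By F test 0.0605% of all probe sets passed. At an unadjusted p under 0.05, which is no call, the F test marked 6 of 47 members (12.8%), against 7.76% of all probe sets: Gstt3, Fmo2, Gsta4, Aldh1a1, Aldh4a1 and Ces1d. Levels below are given in the order of the animal numbers, which are 3 to 6 (H2S 3 h), 8 to 10 (6 h), 11 to 14 (24 h), 23 to 26 (144 h), 15 to 18 (air 24 h) and 19 to 22 (air 144 h). Each level is that of its own probes, so genes are not ranked by it.

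At 24 h, H2S against air, 28 of 47 members were higher (54.9% of all probe sets were), and the median change was 0.20 log2 units, against 0.07 for all probe sets. This median was -0.01 to 0.39 with 1 animal left out and -0.11 to 0.47 under the other settings, so its sign was not stable. Limma called 0.0101% of all probe sets and 0 members. An unadjusted p under 0.05 was found for 6 members (12.8%), against 8.09% of all probe sets, and 5 of these were higher in H2S rats: Gstt3, Aldh4a1, Gsta3, Mgst1 and Gsta4. The groups did not overlap for Gstt3, Aldh4a1 and Sult1c3, all higher in H2S rats, while 2.22% of all probe sets were higher without overlap. Without animal 18 the count at an unadjusted p under 0.05 was 2 of 46 (4.35%, against 4.87% of all probe sets).

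At 144 h, 29 of 47 members were higher in H2S than in air rats (48.4% of all probe sets were), with a median change of 0.17, against -0.02 for all probe sets, and -0.03 with no filter on low signals. Limma called 0 of the 19822 probe sets (0%). An unadjusted p under 0.05 was found for 8 members (17%), against 7.8% of all probe sets: Sult1c2, Aldh3a1 and Fmo2 were higher, and Aldh6a1, Aldh1l2, Aldh7a1, Sult5a1 and Aldh18a1 lower in H2S rats. The groups did not overlap for Aldh7a1 and Aldh18a1, both lower, while 3.43% of all probe sets were lower without overlap. This count moved with single air animals. It was 2 of 47 (4.26%, against 7.24%) without animal 19, 12 of 47 (25.5%, against 7.46%) without animal 22, and 15 of 46 (32.6%, against 12.6%) without animals 18 and 22, with no member called in these fits. Without animals 18, 19 and 22 it was 9 of 46 (19.6%, against 7.52%). RNA integrity numbers were 4.8, 5.1, 4.5 and 1.7 in H2S rats and 5.6, 6.4, 5.1 and 6.9 in air rats at 144 h.

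At 3 h, against air of 24 h, 4 of 47 members (8.51%) had an unadjusted p under 0.05, and 9.8% of all probe sets did. They were Mgst2 and Fmo5, higher, and Aldh6a1 and Aldh1a3, lower in H2S rats, while limma called 0.0807% of all probe sets. At 6 h, 0 of 47 members had an unadjusted p under 0.05, against 5.81% of all probe sets, and limma called 0.00504%. At 3 h 22 members were higher, against 55.4% of all probe sets, and at 6 h 19, against 55%. The median change was -0.09 at 3 h and -0.29 at 6 h, against 0.09 and 0.08 for all probe sets.

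Among exposed rats, 34 of 47 members were higher at 24 h than at 6 h, with a median difference of 0.29 against -0.01 for all probe sets, of which 48.8% were higher. Of the 16 tested GST and microsomal GST genes, 14 were higher. Gstt3, Gstk1 and Aldh1a1 had an unadjusted p under 0.05 (3 of 47, 6.38%, against 3.06% of all probe sets), and limma called 0.0101% of all probe sets. Without overlap 5 of 47 members were higher and 0 lower, as were 3.4% and 3.13% of all probe sets. At 6 h against 3 h, 22 of 47 were higher (48.6% of all probe sets), and Fmo2 (higher) and Aldh3b1 (lower) had an unadjusted p under 0.05 (4.26%, against 4.21%, with 0.00504% called). In that comparison 1 member was higher and 1 lower without overlap, as were 3.16% and 3.78% of all probe sets. Between the air groups, 33 of 47 were higher at 144 h than at 24 h (55.7% of all probe sets), and 4 (8.51%, against 8.37%) had such a p, with 0% of probe sets called. Of the members 1 was higher and 1 lower there without overlap, as were 1.24% and 0.848% of all probe sets. The change at 144 h minus the change at 24 h was above 0 for 23 of 47 members (44.6% of all probe sets), with a median of -0.05 against -0.09. It had an unadjusted p under 0.05 for 3 of 47 (6.38%, against 4.69%, with 0% called): Aldh7a1, Gstt3 and Sult1c2.

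**Figure D2:**
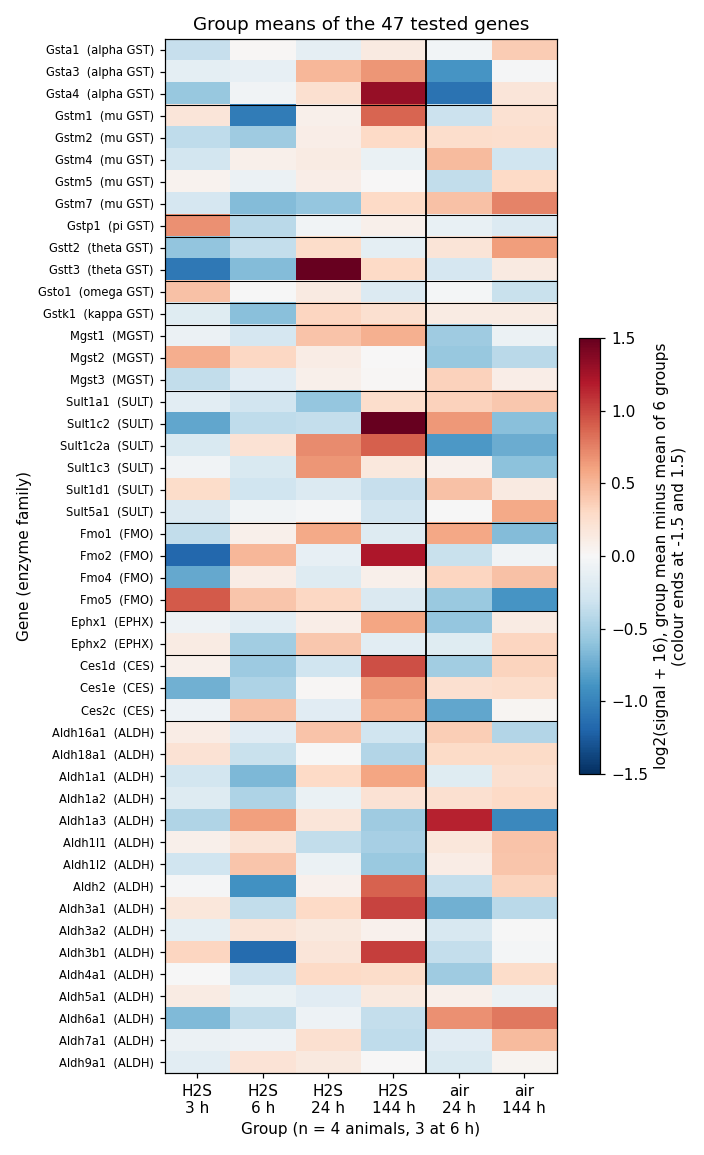
Rows are the 47 tested genes grouped by family, columns the 6 groups, and colour is the group mean of log2(signal + 16) minus the mean over the 6 groups, red for higher and blue for lower, ending at -1.5 and 1.5. Gstt3 is highest at 24 h after H2S (mean 12.70), and Fmo2 is lowest at 3 h (10.33) and highest at 144 h after H2S (12.71).

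Among the GST genes, Gstt3, a theta class transferase, had the smallest F-test p of the members. After H2S, Gstt3 values were 10.71, 9.19, 10.04 and 10.39 at 3 h, 10.89, 10.78 and 9.84 at 6 h, 13.34, 12.82, 11.41 and 13.24 at 24 h and 11.22, 11.81, 11.23 and 11.55 at 144 h. Air rats had Gstt3 values of 10.76, 10.92, 11.08 and 10.86 at 24 h and 11.31, 12.11, 10.61 and 11.12 at 144 h. All 4 H2S animals at 24 h lay above every air animal of 24 h and every H2S animal of 6 h. The change of Gstt3 at 24 h after H2S against air was 1.80 (SE 0.421), with an unadjusted p of 0.000310 and an adjusted p of 0.352. Gstt3 had a change of 2.20 at 24 h against 6 h after H2S (SE 0.454, unadjusted p = 7.71e-05, adjusted p = 0.191). At 144 h the change against air was 0.17, and the change at 144 h minus that at 24 h was -1.63 (SE 0.595, adjusted p = 0.946). That difference was -0.94 once the RNA integrity number (RIN) entered the model, and -1.58 on those same arrays when it did not. The F test gave an adjusted p of 0.0906, just outside the threshold. Animal 13, the H2S animal of 24 h with a value of 11.41 and a RIN of 2.6, was nearest to the other groups. Without it limma called Gstt3 for 24 h against 6 h (change 2.63, adjusted p = 0.0275) and in the F test (adjusted p = 0.0213). Without animal 18 the F test gave an adjusted p of 0.0463.

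Gstt2, the other tested theta gene, is a transferase active on some sulfate esters. For Gstt2, H2S rats had 8.13, 7.14, 7.20 and 7.93 at 3 h, 7.81, 7.59 and 8.09 at 6 h, 8.78, 8.12, 8.53 and 8.43 at 24 h and 8.35, 8.11, 7.59 and 8.11 at 144 h. Gstt2 values in air were 8.06, 7.79, 7.95 and 9.71 at 24 h and 8.54, 7.57, 9.02 and 10.12 at 144 h. The highest values were those of animals 22 and 18. All H2S animals of 24 h lay above those of 6 h, by 0.63 on average (SE 0.493, adjusted p = 0.9999), while the change against air at 24 h was 0.09, and 0.54 without animals 18 and 22. The theta family level, the mean of its 3 genes on an array minus the mean over every gene there, was -0.93 ± 0.604 at 3 h, -0.44 ± 0.260 at 6 h, 0.77 ± 0.159 at 24 h and 0.27 ± 0.336 at 144 h after H2S. In air it was 0.09 ± 0.176 at 24 h and 0.21 ± 0.404 at 144 h (SD, n as above). This level averages in Gstt1, which was not tested, and at 24 h Gstt3 changed far more than Gstt2.

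Of the 3 tested alpha GST genes, 2 were higher at 24 h after H2S at an unadjusted p under 0.05, as were 4.8% of all probe sets. None was once animals 18 and 22 were left out, with an unadjusted p of 0.0631 for Gsta3 and 0.0961 for Gsta4. Gsta4 conjugates 4-hydroxynonenal, a product of lipid peroxidation. Gsta4 had log2 signals of 10.92, 8.55, 11.61 and 11.81 at 3 h, 11.54, 10.51 and 11.67 at 6 h, 10.89, 11.47, 11.49 and 12.29 at 24 h and 11.92, 12.23, 13.43 and 12.84 at 144 h after H2S. In air rats Gsta4 had 9.70, 10.87, 10.89 and 9.29 at 24 h and 10.84, 11.34, 11.14 and 12.58 at 144 h. At 24 h the lowest H2S and the highest air value both rounded to 10.89, and at 144 h animal 22 lay inside the range of the H2S rats. The change of Gsta4 at 24 h after H2S against air was 1.35 (SE 0.596), with an unadjusted p of 0.0340 and an adjusted p of 0.612. Gsta4 had a change of 1.13 at 144 h after H2S against air (SE 0.596, unadjusted p = 0.0714, adjusted p = 0.671). The air rats of 144 h were themselves 1.29 above those of 24 h (SE 0.596, adjusted p = 0.588). This difference was 0.62 without animals 18 and 22, 0.66 with array weights and 0.74 with RIN in the model, against 1.12 for those arrays when RIN was left out. Animal 25 had the highest Gsta4 value, and its level of the 4 squamous epithelium markers, of which 0 were tested, was 1.26, against -3.78 to -1.42 in the 22 others.

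Gsta3 is another alpha class transferase, and alpha genes resemble each other in sequence, so their probe sets may share signal. After H2S, Gsta3 values were 9.91, 9.48, 9.79 and 10.16 at 3 h, 9.93, 9.41 and 10.24 at 6 h, 9.77, 10.96, 10.18 and 11.01 at 24 h and 10.46, 11.03, 9.85 and 11.22 at 144 h. Air rats had Gsta3 values of 9.27, 9.65, 10.21 and 7.25 at 24 h and 9.35, 9.44, 10.48 and 10.58 at 144 h. The value of animal 18 stood lowest of all 23. The change of Gsta3 at 24 h after H2S against air was 1.39 (SE 0.503), with an unadjusted p of 0.0116 and an adjusted p of 0.600. Without animal 18 the change was 0.77. Gsta1, whose class also detoxifies lipid peroxides, averaged 8.83 at 3 h, 9.20 at 6 h, 9.05 at 24 h and 9.31 at 144 h after H2S, and 9.14 at 24 h and 9.56 at 144 h in air. The alpha family level was 1.04 ± 0.526 at 144 h after H2S and 0.67 ± 0.496 in air, and 0.46 ± 0.448 at 24 h after H2S and 0.16 ± 0.482 in air.

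The 5 tested mu class genes showed no member at an unadjusted p under 0.05 in any comparison. Gstm1 is a broad-range transferase. For Gstm1, H2S rats had 9.09, 9.23, 9.36 and 10.41 at 3 h, 8.50, 7.72 and 8.66 at 6 h, 9.26, 10.12, 8.01 and 10.28 at 24 h and 10.42, 10.47, 8.92 and 11.04 at 144 h. Gstm1 values in air were 7.78, 8.42, 8.96 and 10.88 at 24 h and 7.85, 8.70, 9.50 and 12.23 at 144 h. Its lowest group mean was that of 6 h after H2S, where all 3 animals lay below every H2S animal of 3 h. Gstm1 had a change of -1.23 at 6 h against 3 h after H2S (SE 0.821, unadjusted p = 0.150, adjusted p = 1.0). Its highest value was that of animal 22. Without animals 18 and 22 the change at 144 h was 1.53 (unadjusted p = 0.0127, adjusted p = 0.300), against 0.64 with all arrays. That fit kept animal 19, the lowest air rat of 144 h, and 12.6% of all probe sets had an unadjusted p under 0.05 there. Gstm7 is another mu class gene. Gstm7 had log2 signals of 8.14, 9.07, 8.22 and 9.64 at 3 h, 8.08, 9.53 and 7.48 at 6 h, 8.71, 8.07, 8.34 and 8.64 at 24 h and 8.70, 9.87, 8.64 and 10.07 at 144 h after H2S. In air rats Gstm7 had 8.44, 9.18, 9.47 and 10.74 at 24 h and 9.84, 9.20, 9.65 and 10.34 at 144 h. All H2S rats of 24 h lay below all but 1 air rat of 24 h, animal 15. The change of Gstm7 at 24 h after H2S against air was -1.01 (SE 0.504), with an unadjusted p of 0.0564 and an adjusted p of 0.612. It was -0.59 without animals 18 and 22 (unadjusted p = 0.232). The other mu genes, Gstm2, Gstm4 and Gstm5, had changes at 24 h of -0.16, -0.35 and 0.47, with SEs of 0.639, 0.673 and 0.447. They were 0.51, 0.06 and 0.15 without animals 18 and 22.

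Gstp1 is the pi class transferase, abundant in many epithelia. After H2S, Gstp1 values were 10.57, 11.17, 10.17 and 12.18 at 3 h, 10.06, 10.24 and 9.49 at 6 h, 9.87, 10.25, 9.20 and 11.84 at 24 h and 10.95, 9.91, 10.12 and 10.70 at 144 h. Air rats had Gstp1 values of 9.18, 10.0, 10.33 and 11.42 at 24 h and 8.77, 9.15, 10.01 and 12.61 at 144 h. Animal 22 was highest of all, and the groups overlapped in each comparison. Gstp1 had a change of 0.06 at 24 h after H2S against air (SE 0.685, unadjusted p = 0.931, adjusted p = 0.982). The change of Gstp1 at 3 h after H2S against air of 24 h was 0.80 (SE 0.685), with an unadjusted p of 0.258 and an adjusted p of 0.687. Gsto1, an omega class enzyme, reduces dehydroascorbate and methylated arsenic. For Gsto1, H2S rats had 11.72, 12.28, 12.25 and 12.35 at 3 h, 11.43, 12.50 and 11.22 at 6 h, 12.37, 11.65, 11.34 and 12.04 at 24 h and 11.46, 11.24, 12.07 and 11.25 at 144 h. Gsto1 values in air were 11.82, 11.92, 11.66 and 11.33 at 24 h and 10.92, 11.27, 11.60 and 11.76 at 144 h. Its group means spanned less than 1 log2 unit, and no change exceeded 0.47, at 3 h (SE 0.334, adjusted p = 0.636).

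Gstk1 encodes the kappa class enzyme of mitochondria and peroxisomes. Gstk1 had log2 signals of 9.32, 9.74, 9.52 and 10.76 at 3 h, 9.24, 9.88 and 9.06 at 6 h, 10.50, 9.77, 9.89 and 11.21 at 24 h and 10.18, 10.05, 10.34 and 10.46 at 144 h after H2S. In air rats Gstk1 had 9.60, 10.10, 9.85 and 11.01 at 24 h and 10.11, 10.09, 9.98 and 10.41 at 144 h. H2S rats of 6 h held the lowest group mean. Gstk1 had a change of 0.95 at 24 h against 6 h after H2S (SE 0.408, unadjusted p = 0.0296, adjusted p = 0.9999). At 24 h the change against air was 0.20 and at 144 h 0.11.

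Mgst1, Mgst2 and Mgst3 are membrane-bound transferases outside the soluble GST family. Mgst1, the microsomal form that responds to oxidants, was above the array median on all arrays. After H2S, Mgst1 values were 13.21, 12.22, 12.82 and 13.42 at 3 h, 12.65, 12.79 and 12.82 at 6 h, 13.55, 13.61, 12.85 and 13.73 at 24 h and 13.33, 13.65, 13.47 and 13.71 at 144 h. Air rats had Mgst1 values of 12.41, 13.02, 12.88 and 11.59 at 24 h and 12.10, 13.16, 12.80 and 13.60 at 144 h. At 24 h, H2S animals 11, 12 and 14 lay above all air rats and animal 13 inside their range, and all 4 lay above the 3 H2S rats of 6 h. The change of Mgst1 at 24 h after H2S against air was 0.96 (SE 0.366), with an unadjusted p of 0.0158 and an adjusted p of 0.612. Its change was 0.66 without animals 18 and 22. Mgst1 had a change of 0.63 at 144 h after H2S against air (SE 0.366, unadjusted p = 0.101, adjusted p = 0.693).

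Mgst2 can form leukotriene C4 from leukotriene A4. For Mgst2, H2S rats had 11.31, 12.01, 11.77 and 12.19 at 3 h, 11.08, 12.15 and 11.55 at 6 h, 11.16, 11.62, 11.11 and 11.67 at 24 h and 11.08, 11.79, 11.33 and 10.96 at 144 h. Mgst2 values in air were 11.67, 9.93, 11.26 and 10.01 at 24 h and 10.37, 10.88, 10.70 and 11.56 at 144 h. The air rats of 24 h split into a higher pair and a lower pair, animals 16 and 18. The change of Mgst2 at 3 h after H2S against air of 24 h was 1.11 (SE 0.392), with an unadjusted p of 0.00996 and an adjusted p of 0.399. Its changes at 6 h, 24 h and 144 h were 0.88, 0.67 and 0.41. Without animals 18 and 22 those at 24 h and 144 h were 0.44 and 0.64, with animal 19, the lowest air rat of 144 h, kept. Mgst3 averaged 8.22 at 3 h, 8.41 at 6 h, 8.67 at 24 h and 8.60 at 144 h after H2S, and 8.93 at 24 h and 8.69 at 144 h in air. The microsomal family level was 2.67 ± 0.143 at 24 h and 2.68 ± 0.273 at 144 h after H2S, and 2.24 ± 0.312 and 2.28 ± 0.470 in air.

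**Figure D3:**
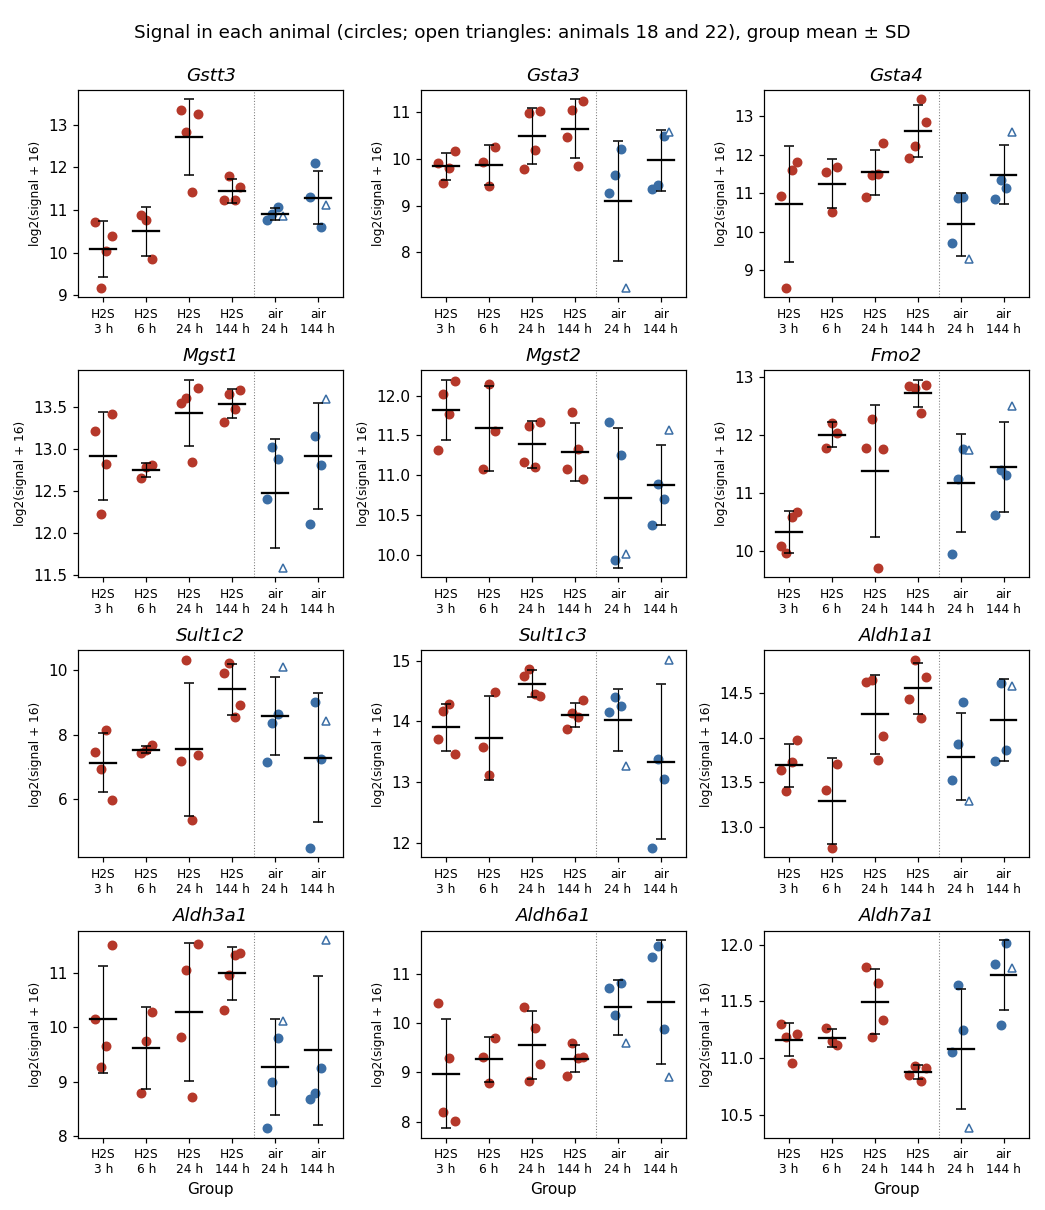
Each panel shows log2(signal + 16) of 1 gene (vertical axis) in each animal of the 6 groups (horizontal axis), red for H2S and blue for air, with bars for the group mean ± SD and open triangles for animals 18 and 22. The 4 H2S rats of 24 h lie between 11.41 and 13.34 for Gstt3, above all air rats of 24 h, and the H2S rats of 144 h lie below all air rats of 144 h for Aldh7a1.

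Among the sulfotransferases, 6 of 14 genes were tested, and none passed. Sult1c3 belongs to the 1C subfamily and was above the median on all arrays. Sult1c3 had log2 signals of 13.71, 14.17, 14.29 and 13.47 at 3 h, 13.58, 13.12 and 14.48 at 6 h, 14.75, 14.86, 14.44 and 14.42 at 24 h and 13.87, 14.13, 14.07 and 14.35 at 144 h after H2S. In air rats Sult1c3 had 14.16, 14.40, 14.26 and 13.26 at 24 h and 11.92, 13.37, 13.05 and 15.01 at 144 h. At 24 h every H2S rat lay above every air rat, the lowest H2S value being 14.42 and the highest air value 14.40, and at 144 h the air rats reached from 11.92 (animal 19) to 15.01 (animal 22). Sult1c3 had a change of 0.60 at 24 h after H2S against air (SE 0.462, unadjusted p = 0.208, adjusted p = 0.678). The change of Sult1c3 at 144 h after H2S against air was 0.77 (SE 0.462), with an unadjusted p of 0.111 and an adjusted p of 0.700. Without animals 18 and 22 the change at 24 h was 0.35, and at 144 h 1.33 (adjusted p = 0.241). That fit left out the highest air rat of 144 h and kept the lowest, animal 19.

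Sult1c2 is a related enzyme. After H2S, Sult1c2 values were 7.47, 6.92, 8.15 and 5.97 at 3 h, 7.43, 7.50 and 7.67 at 6 h, 7.17, 10.32, 5.34 and 7.36 at 24 h and 9.92, 10.22, 8.55 and 8.92 at 144 h. Air rats had Sult1c2 values of 7.15, 8.37, 8.64 and 10.10 at 24 h and 4.48, 9.0, 7.22 and 8.43 at 144 h. Animal 19 had the lowest value of its group, 4.48, close to a signal of 0. Sult1c2 had a change of 2.12 at 144 h after H2S against air (SE 0.900, unadjusted p = 0.0279, adjusted p = 0.615). Without animal 19 the change was 1.18, and at 24 h it was -1.02, or -0.51 without animals 18 and 22. The change at 144 h minus that at 24 h was 3.13 (SE 1.27, adjusted p = 0.946), and 1.80 without animals 18, 19 and 22 (unadjusted p = 0.162). Sult1c2a resembles Sult1c2 in name and sequence, so the 2 probe sets may share signal, and its changes were 1.57 at 24 h and 1.64 at 144 h (SE 0.996 for both). Without animals 18, 19 and 22 the Sult1c2a change at 144 h was 0.46.

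Sult5a1 is a further sulfotransferase. For Sult5a1, H2S rats had 10.70, 10.25, 11.002 and 11.36 at 3 h, 11.68, 11.19 and 10.11 at 6 h, 11.54, 10.79, 11.32 and 10.47 at 24 h and 10.58, 11.20, 10.73 and 10.51 at 144 h. Sult5a1 values in air were 10.93, 11.40, 11.42 and 10.42 at 24 h and 10.48, 12.0, 11.89 and 12.06 at 144 h. Animal 19 was the air rat that overlapped the H2S rats of 144 h. The change of Sult5a1 at 144 h after H2S against air was -0.85 (SE 0.409), with an unadjusted p of 0.0491 and an adjusted p of 0.639. Without animals 18, 19 and 22 it was -1.19 (adjusted p = 0.567). Sult1a1, which sulfates phenols, had 7.05, 6.69, 6.50 and 6.62 at 24 h after H2S and 7.0, 7.47, 7.03 and 9.07 in air. Sult1a1 had a change of -0.93 at 24 h after H2S against air (SE 0.433, unadjusted p = 0.0438, adjusted p = 0.612). Without animal 18, the highest air value, it was -0.45. Sult1d1 averaged 6.64 at 3 h, 6.06 at 6 h, 6.16 at 24 h and 6.02 at 144 h after H2S, and 6.79 at 24 h and 6.49 at 144 h in air.

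All 4 FMO genes were tested. Fmo2, the form best known from lung, had 3 probe sets, and the one used here had the highest mean signal. Fmo2 had log2 signals of 10.09, 9.96, 10.58 and 10.67 at 3 h, 11.78, 12.20 and 12.02 at 6 h, 11.77, 12.28, 9.71 and 11.75 at 24 h and 12.84, 12.80, 12.37 and 12.85 at 144 h after H2S. In air rats Fmo2 had 9.95, 11.23, 11.75 and 11.74 at 24 h and 10.62, 11.39, 11.30 and 12.49 at 144 h. All H2S rats of 6 h and of 144 h lay above all those of 3 h. The change of Fmo2 at 6 h against 3 h after H2S was 1.67 (SE 0.527), with an unadjusted p of 0.00434 and an adjusted p of 0.773. Fmo2 had a change of 1.26 at 144 h after H2S against air (SE 0.488, unadjusted p = 0.0167, adjusted p = 0.600). With the mean of its 3 probe sets these changes were 0.81 and 0.80. Its F test had an unadjusted p of 0.00234 and an adjusted p of 0.331.

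Fmo5 acts as a Baeyer-Villiger monooxygenase on some ketones. After H2S, Fmo5 values were 9.62, 8.96, 9.36 and 11.45 at 3 h, 11.05, 8.20 and 8.79 at 6 h, 9.65, 9.72, 7.56 and 10.01 at 24 h and 8.63, 8.49, 7.89 and 9.84 at 144 h. Air rats had Fmo5 values of 7.69, 8.49, 8.01 and 9.28 at 24 h and 7.13, 7.70, 7.77 and 9.58 at 144 h. Animal 6 had the highest value of the H2S rats of 3 h. The change of Fmo5 at 3 h after H2S against air of 24 h was 1.48 (SE 0.687), with an unadjusted p of 0.0422 and an adjusted p of 0.498. Without animal 6 it was 0.95, and on the arrays with a RIN, which leave out animals 5, 6, 9 and 15, it was 0.70. Fmo1 averaged 7.52 at 3 h, 7.96 at 6 h, 8.45 at 24 h and 7.69 at 144 h after H2S, and 8.46 at 24 h and 7.23 at 144 h in air. Fmo4 averaged 7.08 at 3 h, 7.95 at 6 h, 7.66 at 24 h and 7.92 at 144 h after H2S, and 8.17 at 24 h and 8.28 at 144 h in air. The FMO family level was 0.18 ± 0.515 at 3 h, 0.85 ± 0.426 at 6 h, 0.68 ± 0.682 at 24 h and 0.79 ± 0.466 at 144 h after H2S, and 0.57 ± 0.966 at 24 h and 0.20 ± 0.903 at 144 h in air.

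Of the hydrolases, Ephx1 is the microsomal epoxide hydrolase. For Ephx1, H2S rats had 8.56, 8.71, 8.75 and 9.05 at 3 h, 8.68, 7.87 and 9.48 at 6 h, 8.61, 9.03, 8.95 and 9.16 at 24 h and 9.27, 9.54, 9.12 and 9.79 at 144 h. Ephx1 values in air were 9.22, 8.53, 9.48 and 5.82 at 24 h and 8.19, 8.51, 8.82 and 10.33 at 144 h. Animal 18 was lowest and animal 22 highest of all. Ephx1 had a change of 0.47 at 144 h after H2S against air (SE 0.584, unadjusted p = 0.430, adjusted p = 0.878). Without animals 18 and 22 it was 0.93 (unadjusted p = 0.0103, adjusted p = 0.293). That fit kept animal 19, the lowest air rat of 144 h, and 12.6% of all probe sets had an unadjusted p under 0.05 there. Ephx2, the soluble form, opens epoxides of fatty acids. Ephx2 had log2 signals of 8.61, 9.14, 9.18 and 10.17 at 3 h, 8.37, 9.04 and 8.50 at 6 h, 9.24, 9.82, 9.19 and 9.98 at 24 h and 7.37, 9.96, 8.75 and 9.92 at 144 h after H2S. In air rats Ephx2 had 8.16, 9.59, 9.01 and 9.17 at 24 h and 9.0, 9.69, 9.29 and 9.94 at 144 h. The H2S rats of 24 h lay above those of 6 h. The change of Ephx2 at 24 h against 6 h after H2S was 0.92 (SE 0.517), with an unadjusted p of 0.0886 and an adjusted p of 0.9999.

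Carboxylesterases of the Ces1 group are close in sequence, and their probe sets may share signal. Ces1d hydrolyses esters and triglycerides. After H2S, Ces1d values were 12.08, 11.54, 11.83 and 12.36 at 3 h, 11.45, 11.66 and 10.88 at 6 h, 11.75, 12.86, 9.79 and 11.90 at 24 h and 12.87, 13.17, 12.43 and 12.90 at 144 h. Air rats had Ces1d values of 10.64, 11.79, 12.06 and 10.91 at 24 h and 11.72, 11.86, 12.47 and 12.79 at 144 h. The H2S rats of 144 h were high, with 3 of 4 above all air rats of 144 h. Ces1d had a change of 0.63 at 144 h after H2S against air (SE 0.479, unadjusted p = 0.201, adjusted p = 0.766). The change of Ces1d in air rats of 144 h against those of 24 h was 0.86 (SE 0.479), with an unadjusted p of 0.0870 and an adjusted p of 0.635. The difference between the air groups was 0.52 without animals 18 and 22. Its F test had an unadjusted p of 0.0391 and an adjusted p of 0.612. Ces1e had lower detection, above the median on 7 arrays. For Ces1e, H2S rats had 4.76, 7.06, 6.49 and 7.40 at 3 h, 6.59, 7.42 and 6.06 at 6 h, 7.68, 7.32, 6.70 and 7.0 at 24 h and 7.59, 7.94, 7.59 and 8.10 at 144 h. Ces1e values in air were 6.28, 7.32, 6.18 and 9.82 at 24 h and 7.86, 7.01, 7.46 and 7.36 at 144 h. Its highest value was that of animal 18, and its groups overlapped. Ces1e had a change of 0.38 at 144 h after H2S against air (SE 0.617, unadjusted p = 0.542, adjusted p = 0.915). Ces2c, above the median on 4 arrays, averaged 6.48 at 3 h, 7.0 at 6 h, 6.39 at 24 h and 7.11 at 144 h after H2S, and 5.78 at 24 h and 6.59 at 144 h in air.

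The ALDH family had the most tested genes, 16 of 17. At 144 h 5 of 16 (31.2%, against 7.8% of all probe sets) had an unadjusted p under 0.05, with 4 lower and 1 higher in H2S rats, and at 24 h 1 of 16 (6.25%, against 8.09%). Those of retinoid metabolism are described first. Aldh1a1 makes retinoic acid from retinaldehyde. Aldh1a1 had log2 signals of 13.64, 13.41, 13.73 and 13.98 at 3 h, 13.42, 12.76 and 13.70 at 6 h, 14.63, 14.65, 13.75 and 14.02 at 24 h and 14.44, 14.88, 14.23 and 14.69 at 144 h after H2S. In air rats Aldh1a1 had 13.53, 13.93, 14.40 and 13.29 at 24 h and 13.74, 14.61, 13.87 and 14.59 at 144 h. All H2S rats of 24 h lay above all those of 6 h, as was so for 3.4% of all probe sets. The change of Aldh1a1 at 24 h against 6 h after H2S was 0.97 (SE 0.359), with an unadjusted p of 0.0131 and an adjusted p of 0.9999. Against air the changes were 0.48 at 24 h and 0.36 at 144 h. Aldh1a3, which has the same reaction, had 8.89, 7.75, 8.24 and 6.78 at 3 h after H2S and 9.98, 8.77, 9.17 and 10.15 in air of 24 h. Aldh1a3 had a change of -1.60 at 3 h after H2S against air of 24 h (SE 0.719, unadjusted p = 0.0361, adjusted p = 0.490). The air rats of 144 h lay below those of 24 h without overlap, with a difference of -2.13 (SE 0.719, adjusted p = 0.552). Aldh1a2 averaged 8.40 at 3 h, 8.14 at 6 h, 8.50 at 24 h and 8.82 at 144 h after H2S, and 8.84 at 24 h and 8.90 at 144 h in air.

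Among the aldehyde-detoxifying forms, Aldh3a1 is known from cornea and is induced in some tissues by foreign compounds. Its values at 144 h were 10.32, 10.96, 11.34 and 11.38 after H2S and 8.67, 8.78, 9.24 and 11.61 in air. Animal 22 lay above all H2S rats, and the other 3 air rats lay below them all. The change of Aldh3a1 at 144 h after H2S against air was 1.42 (SE 0.668), with an unadjusted p of 0.0449 and an adjusted p of 0.636. Without animals 18 and 22 it was 2.10 (adjusted p = 0.254), in a fit that kept animal 19, the lowest of these air rats. Aldh3b1 oxidises medium- and long-chain aldehydes. After H2S, Aldh3b1 values were 11.63, 12.66, 12.47 and 13.67 at 3 h, 11.15, 12.40 and 9.85 at 6 h, 12.60, 12.82, 11.01 and 13.48 at 24 h and 13.66, 13.55, 12.51 and 13.59 at 144 h. Air rats had Aldh3b1 values of 11.04, 12.29, 12.84 and 11.55 at 24 h and 10.72, 12.55, 12.42 and 13.32 at 144 h. Group means were lowest at 6 h. Aldh3b1 had a change of -1.47 at 6 h against 3 h after H2S (SE 0.672, unadjusted p = 0.0392, adjusted p = 1.0). Without animal 10 it was -0.83. The change of Aldh3b1 at 144 h after H2S against air was 1.07 (SE 0.622), with an unadjusted p of 0.0983 and an adjusted p of 0.693.

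Aldh2, the mitochondrial acetaldehyde dehydrogenase, had means of 11.38 at 3 h, 10.49 at 6 h, 11.46 at 24 h and 12.28 at 144 h after H2S, and 11.04 at 24 h and 11.73 at 144 h in air. Aldh2 had a change of 0.54 at 144 h after H2S against air (SE 0.528, unadjusted p = 0.314, adjusted p = 0.827). It was 0.86 without animals 18 and 22, in a fit that kept animal 19, the lowest air rat of 144 h. Aldh3a2, the fatty aldehyde form, averaged 10.44 at 3 h, 10.78 at 6 h, 10.74 at 24 h and 10.66 at 144 h after H2S, and 10.35 at 24 h and 10.59 at 144 h in air, and the largest change against air was 0.44 at 6 h (SE 0.383). Aldh9a1, of carnitine synthesis, averaged 10.62 at 3 h, 10.98 at 6 h, 10.92 at 24 h and 10.78 at 144 h after H2S, and 10.54 at 24 h and 10.81 at 144 h in air. Neither of these had an unadjusted p under 0.05 in any comparison.

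Of the genes of amino acid breakdown, Aldh7a1, which acts on the lysine semialdehyde, and Aldh6a1, on that of valine and thymine, had changes below 0 at 144 h. Aldh7a1 had 10.85, 10.93, 10.80 and 10.92 at 144 h after H2S and 11.83, 11.29, 12.02 and 11.79 in air. These groups did not overlap. The change of Aldh7a1 at 144 h after H2S against air was -0.86 (SE 0.282), with an unadjusted p of 0.00594 and an adjusted p of 0.580. At 24 h it was higher by 0.42 (SE 0.282), and the change at 144 h minus that at 24 h was -1.27 (SE 0.399, adjusted p = 0.946). These used animal 18, which had the lowest Aldh7a1 signal of the air rats of 24 h. Air rats of 144 h were 0.65 above those of 24 h, and 0.42 above them without animal 18. Aldh6a1 had 8.93, 9.60, 9.29 and 9.31 at 144 h after H2S and 11.34, 11.56, 9.87 and 8.92 in air, where animals 19, 20 and 21 lay above all H2S rats and animal 22 below them. Aldh6a1 had a change of -1.14 at 144 h after H2S against air (SE 0.550, unadjusted p = 0.0495, adjusted p = 0.639). The change of Aldh6a1 at 3 h after H2S against air of 24 h was -1.34 (SE 0.550), with an unadjusted p of 0.0229 and an adjusted p of 0.453. With the mean of its 2 probe sets the change at 144 h was -0.73.

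Aldh4a1, of proline breakdown, was higher at 24 h without overlap. For Aldh4a1, H2S rats had 8.74, 8.55, 8.49 and 9.02 at 3 h, 8.22, 8.10 and 8.89 at 6 h, 8.87, 9.08, 8.84 and 9.25 at 24 h and 9.19, 9.20, 8.36 and 9.19 at 144 h. Aldh4a1 values in air were 8.34, 7.88, 8.47 and 8.02 at 24 h and 9.37, 8.85, 8.75 and 8.97 at 144 h. The air rats of 144 h also lay above those of 24 h without overlap. Aldh4a1 had a change of 0.84 at 24 h after H2S against air (SE 0.288, unadjusted p = 0.00828, adjusted p = 0.580). The change of Aldh4a1 in air rats of 144 h against those of 24 h was 0.81 (SE 0.288), with an unadjusted p of 0.0103 and an adjusted p of 0.552. Its change at 144 h was close to 0 (-0.0012).

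The remaining ALDH genes include those of proline synthesis, folate metabolism and GABA breakdown. Aldh18a1, of proline synthesis, had 8.21, 9.08, 9.22 and 8.75 after H2S and 9.71, 9.51, 9.30 and 9.65 in air, without overlap. Aldh18a1 had a change of -0.73 at 144 h after H2S against air (SE 0.321, unadjusted p = 0.0340, adjusted p = 0.624). With each array centred on its median it was -0.39. Aldh1l2 is the mitochondrial 10-formyltetrahydrofolate dehydrogenase and had 9.72, 9.98, 9.43 and 9.65 after H2S and 11.13, 11.26, 10.50 and 9.77 in air. Animal 22 was the air rat that overlapped. The change of Aldh1l2 at 144 h after H2S against air was -0.97 (SE 0.425), with an unadjusted p of 0.0322 and an adjusted p of 0.624. Aldh1l1, its cytosolic form, had a change of -0.92 (SE 0.541), and of -1.47 without animals 18, 19 and 22. Aldh5a1, of GABA breakdown, averaged 8.0 at 3 h, 7.77 at 6 h, 7.70 at 24 h and 8.01 at 144 h after H2S, and 7.95 at 24 h and 7.78 at 144 h in air. Aldh16a1 averaged 8.38 at 3 h, 8.09 at 6 h, 8.70 at 24 h and 7.97 at 144 h after H2S, and 8.63 at 24 h and 7.83 at 144 h in air.

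**Figure D4:**
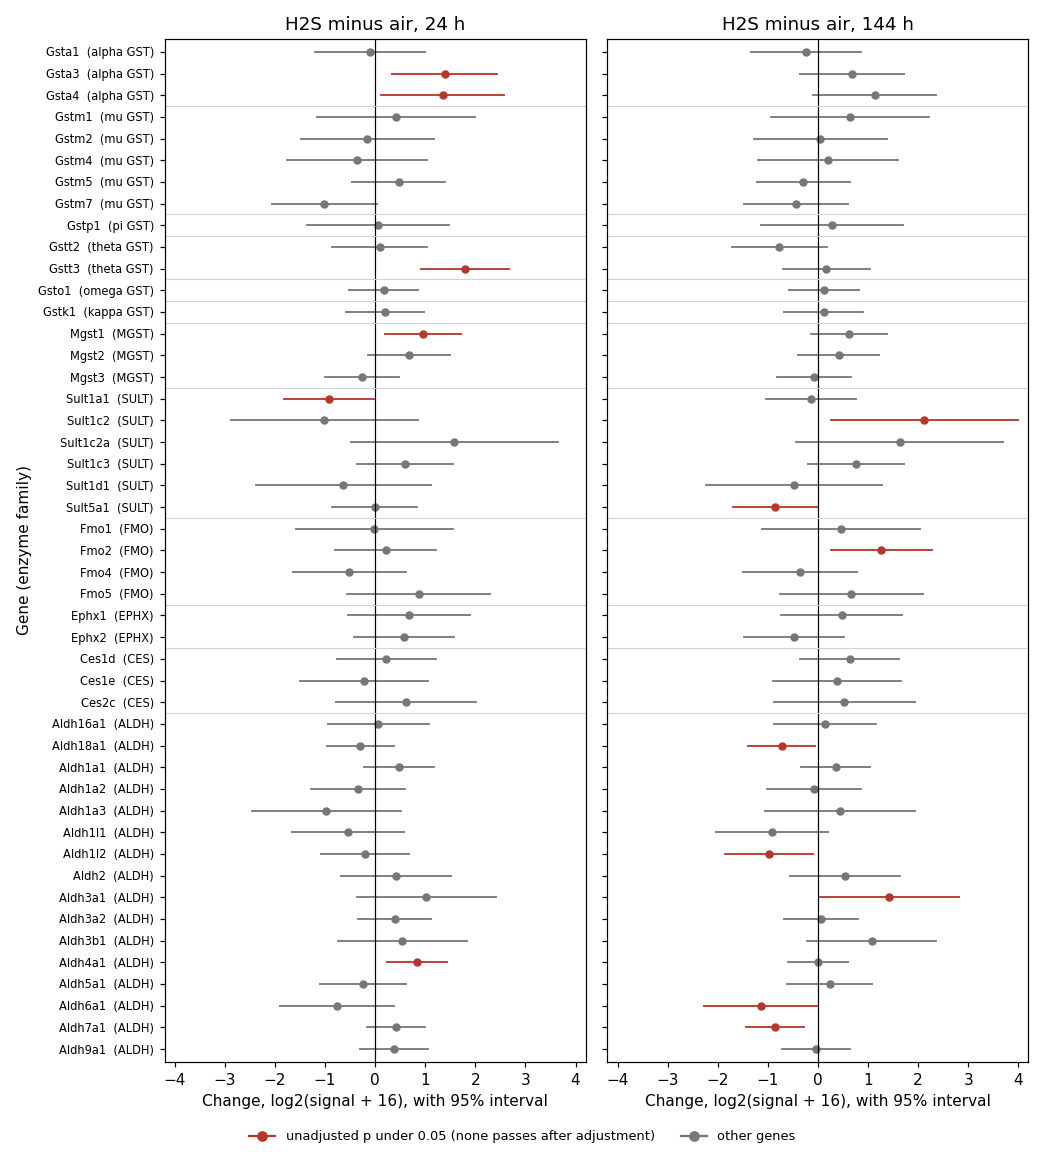
Points are the change on the log2(signal + 16) scale (H2S minus air, horizontal axes) of the 47 tested genes (vertical axis) at 24 h (left) and 144 h (right), and lines their 95% intervals. Red marks an unadjusted p under 0.05, 6 genes at 24 h and 8 at 144 h, and no gene passed after adjustment.

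Family levels summarise each animal over all members, tested or not. The ALDH level was 1.06 ± 0.258 at 3 h, 0.96 ± 0.237 at 6 h, 1.21 ± 0.133 at 24 h and 1.28 ± 0.138 at 144 h after H2S, and 1.24 ± 0.210 and 1.24 ± 0.118 in air. The SULT level was -1.53 ± 0.281 at 24 h and -1.48 ± 0.228 at 144 h after H2S, and -1.22 ± 0.756 and -1.61 ± 0.257 in air. Animals 18 and 22 each had the highest level of its own air group for alpha, mu, pi, theta and kappa GST, SULT, FMO and CES. Over all 73 genes the level was -0.30 ± 0.221 at 24 h after H2S, against -0.22 ± 0.511 in air, and -0.19 ± 0.141 at 144 h after H2S, against -0.24 ± 0.265 in air.

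**Figure D5:**
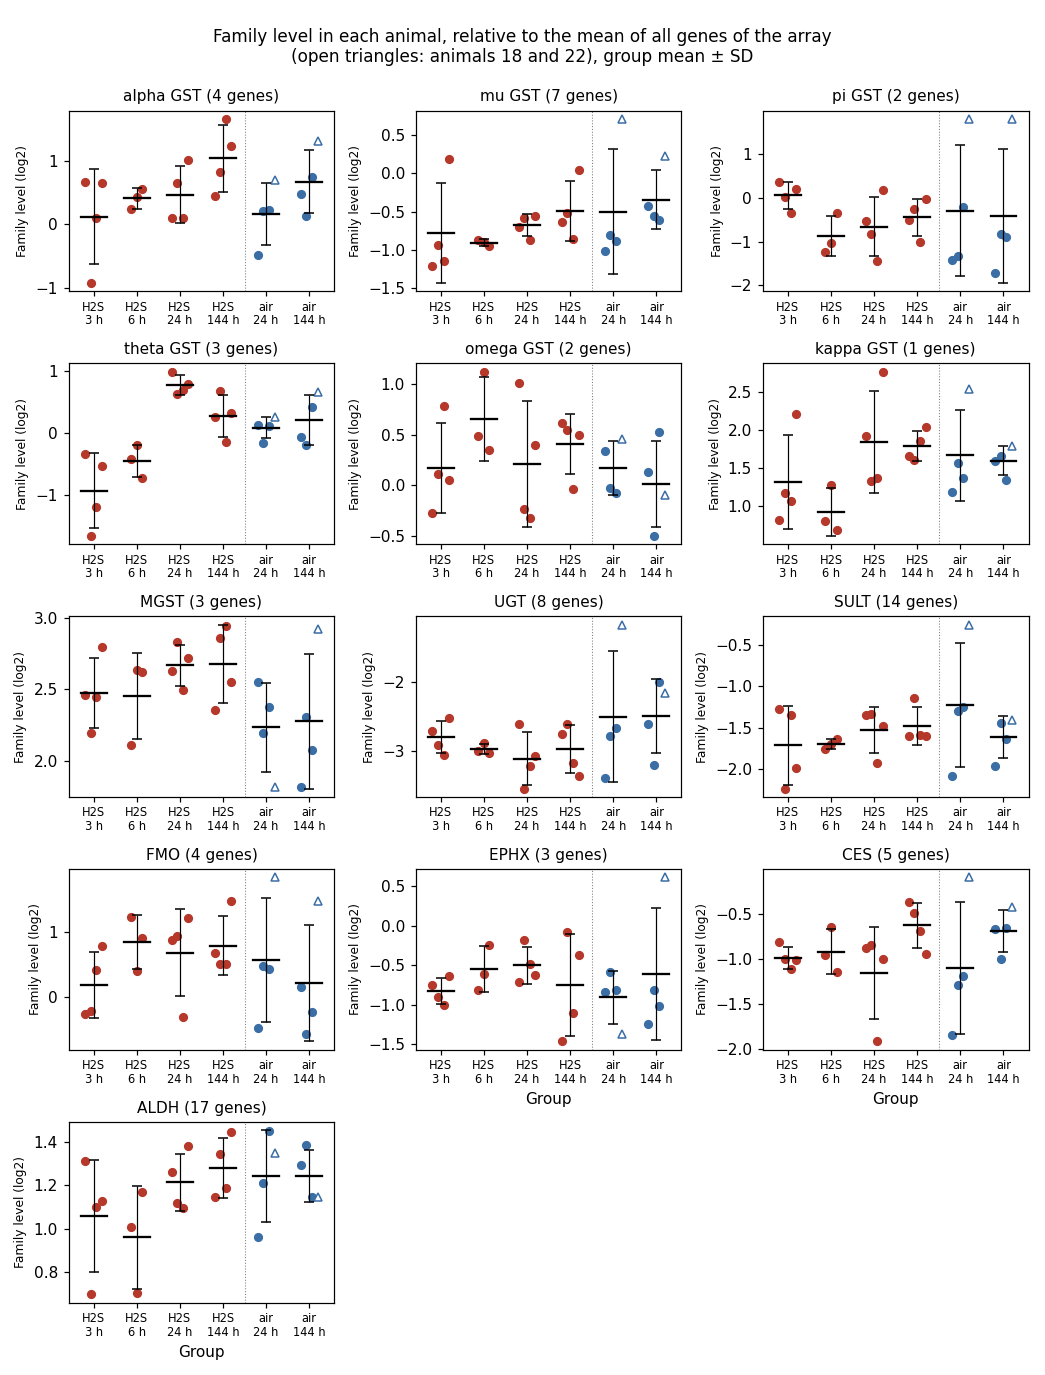
Each panel shows the level of 1 family (vertical axis, log2, minus the array's mean over every gene) in each animal of the 6 groups (horizontal axis), with bars for the group mean ± SD and open triangles for animals 18 and 22. The theta GST level is 0.77 ± 0.159 at 24 h after H2S, above the air rats of 24 h (0.09 ± 0.176). Of its genes, Gstt3 changed by 1.80 and Gstt2 by 0.09 in that comparison, and Gstt1 was not tested.

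Cell marker levels are given beside these as a description, were not tested, and overlapped between H2S and air rats in each comparison given here. The ciliated cell level ranged from 1.84 to 3.36 at 144 h after H2S and from 0.34 to 3.11 in air, and from 0.61 to 2.62 at 24 h after H2S and from 0.82 to 1.64 in air. That of basal cells ranged from 0.60 to 3.17 at 144 h after H2S and from -0.55 to 2.13 in air, and from 0.50 to 1.79 at 24 h after H2S and from -0.18 to 1.10 in air. The leukocyte level at 3 h after H2S ranged from 0.62 to 1.86 (median 1.01), and in air of 24 h from -0.41 to 1.37 (median 0.30). At 6 h the ciliated level ranged from 0.10 to 1.34 and the secretory level from -0.72 to 0.68. These lay below the H2S rats of 3 h without overlap, where they ranged from 1.57 to 2.91 and from 0.88 to 1.36. The same levels in air of 24 h were 0.82 to 1.64 and 0.23 to 1.87. Their part in the enzyme values was not tested.

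Other genes of the same pathways were counted in 6 lists. Phase I oxidation had 18 tested genes, alcohol and carbonyl reduction 16, cosubstrate supply 15, other transferases 8, efflux transporters 6 and regulators 7. The only call was Akr1b8, an aldo-keto reductase, higher by 3.89 at 3 h against air of 24 h (SE 0.727, limma adjusted p = 0.0401). In that comparison limma called 0.0807% of all probe sets. In the other 5 lists none passed in any comparison. Genes of these lists are named for being called or for having 1 of the 2 smallest p, each in 1 of the 8 comparisons. Changes at 3 h and 6 h are against air of 24 h unless another group is named, so they differ in time as well as exposure. In carbonyl reduction, 15 of 16 genes were higher at 24 h, with a median change of 0.67. In cosubstrate supply 13 of 15 were, with a median of 0.69, against 0.07 for all probe sets, of which 54.9% were higher. Against the same air rats, which include animal 18, these medians were 0.33 and 0.57 at 3 h (0.09 for all probe sets). At 6 h they were 0.53 and 0.65 (0.08). Between the air groups they were 0.37 and 0.36 (0.08), and at 144 h after H2S against air 0.20 and 0.36 (-0.02). Nqo1, a quinone reductase, was higher by 2.15 at 3 h (SE 0.513, adjusted p = 0.165). Gss, glutathione synthetase, was higher by 2.29 at 3 h (SE 0.586, adjusted p = 0.190) and Slc7a11, the cystine transporter, by 1.90 at 144 h (SE 0.593, adjusted p = 0.580). Maob, monoamine oxidase B, was higher by 3.25 at 6 h (SE 0.592, adjusted p = 0.161), and Cyp2a3, a nasal cytochrome, had a change of -1.77 at 6 h (SE 0.447, adjusted p = 0.781). Of the other transferases, Tst, the thiosulfate sulfurtransferase, had a difference of 1.53 for 24 h against 6 h after H2S (SE 0.519, adjusted p = 0.9999) and Nat2 of 1.22 for 6 h against 3 h (SE 0.586). The regulator Maff had a change of 1.49 at 3 h (SE 0.541, adjusted p = 0.400) and Nfe2l2, the oxidant-responsive activator, of 0.95 at 144 h (SE 0.412, adjusted p = 0.624). Among efflux transporters, Abcc6 had a change at 144 h minus that at 24 h of -1.73 (SE 0.682, adjusted p = 0.946) and Abcg2 a change of 0.86 at 6 h (SE 0.510).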

How the data were processed

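The deposited intensity values are linear GCOS 1.0 signals, per the submitters' processing notes, 1 value per probe set and animal. Captured RNA was amplified in 2 rounds before labelling, per the labels' protocols. Their 2% trimmed mean is close to 500 on every array, so they had been scaled to a common target, and how the software was set is not given in the labels or notes. Values were analysed as log2(signal + 16). Of 31099 probe sets, 57 controls were left out, and 19822 passed the filter (brighter than the array's median on 3 or more arrays). The platform table names 1 gene symbol for 20832 probe sets, several for 436 and none for 9831. limma 3.58.1 in R 4.3.3 fitted 1 mean per group over all 23 arrays, two-sided, with Benjamini-Hochberg adjustment over all 19822 probe sets at 0.05. Array number limits precision: the median SE at 24 h was 0.489 for members and 0.485 for all. The script was tested on simulated data.

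Groups come from sample titles. The labels say no more than that animals are separate. The members, lists and tests were chosen with earlier results of these data known. Values in every animal are given, per family, for the 2 members with the highest mean level and the 2 with the smallest F-test p. In each comparison up to 6 further members in each direction with the smallest p, and 10 preset genes, may be given as values. Members failing the filter are named with a range at most, and of the other lists the members called and the 2 with the smallest p are named. A probe set can also hybridise with transcripts of related genes. Alternatives covered the pseudocount, normalization, filter, array weights, RNA integrity, samples in the fit, disputed labels, probe set choice and left-out animals.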

Additional observations from a re-analysis of the deposited data

Results flagged for a closer look

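In groups of 4 animals, a value was taken up here when its gap to the nearest of the others exceeded the critical share of the group's range in Dixon's test. Chance flags about 1 in 20 groups, and 23 of 305 groups (7.54%) had such a value, 5 of them in animal 22 and 4 in animal 18. Animal 22 (air 144 h) had Gsta1 at 10.79 (highest, others 9.02 to 9.23), Gstm2 at 10.13 (highest, others 7.58 to 7.60), Gstm4 at 4.86 (lowest, others 8.23 to 8.77), Ces2c at 8.59 (highest, others 5.74 to 6.22) and Aldh1a2 at 9.72 (highest, others 8.56 to 8.68). Animal 18 (air 24 h) had Gstm4 at 9.65 (highest, others 7.96 to 8.05), Gstt2 at 9.71 (highest, others 7.79 to 8.06), Aldh16a1 at 10.31 (highest, others 7.95 to 8.30) and the mu GST family level at 0.71 (highest, others -1.01 to -0.81). Animal 13 (H2S 24 h) had Fmo5 at 7.56 (lowest, others 9.65 to 10.01), Ces2c at 4.64 (lowest, others 6.94 to 7.01) and the CES family level at -1.91 (lowest, others -0.997 to -0.84). Animal 25 (H2S 144 h) had Fmo2 at 12.37 (lowest, others 12.80 to 12.85), Aldh3b1 at 12.51 (lowest, others 13.55 to 13.66) and Aldh4a1 at 8.36 (lowest, others 9.19 to 9.20). Animal 3 (H2S 3 h) had Gsto1 at 11.72 (lowest, others 12.25 to 12.35) and Fmo4 at 5.39 (lowest, others 7.48 to 7.75). Animal 4 (H2S 3 h) had Fmo1 at 6.67 (lowest, others 7.77 to 7.85). Animal 14 (H2S 24 h) had Aldh1a2 at 9.45 (highest, others 8.07 to 8.27). Animal 19 (air 144 h) had Sult5a1 at 10.48 (lowest, others 11.89 to 12.06). Animal 23 (H2S 144 h) had Aldh9a1 at 10.28 (lowest, others 10.91 to 10.98). Animal 24 (H2S 144 h) had the SULT family level at -1.14 (highest, others -1.60 to -1.58). Animal 26 (H2S 144 h) had Gstm5 at 9.59 (highest, others 8.30 to 8.42).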

How the results depend on the processing

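No member was called in any of the 8 comparisons or the F test, and this held for the settings tried with these exceptions. With array weights limma called 1 member at 24 h against air, 1 at 24 h against 6 h after H2S, and 3 in the F test (Aldh6a1, Fmo2 and Gstt3), while it called 52, 93 and 663 of all probe sets, against 2, 2 and 12 without weights. Gstt3 was the 1 member called in the F test with a pseudocount of 64 and with a filter at the 75th percentile, which left 34 members. Leaving out 1 animal at a time gave 0 to 1 members at 24 h against 6 h (1 without animal 13) and 0 to 1 in the F test (1 without animal 13, and 1 without animal 18). The median change at 3 h was -0.52 with RNA integrity as a covariate, against -0.09 with all arrays. That fit holds only the arrays with such a number (not those of animals 5, 6, 9 and 15), and the same arrays without the covariate gave -0.46 (an alternative chosen after seeing the data). Some single-gene changes, none of them called, moved by over 1.5 times. With RNA integrity as a covariate Fmo5 at 3 h was 0.47, Aldh1a3 at 3 h -0.94 and Gsta4 at 24 h 0.88, and on the same arrays without it 0.70, -1.04 and 1.18. Centring arrays on their medians gave -0.52 for Aldh7a1, -0.63 for Aldh1l2 and -0.51 for Sult5a1 at 144 h. Without animals 6, 14 and 18, whose exposure labels disagree, the changes at 24 h were 0.79 for Gsta4, 0.60 for Gsta3 and 0.56 for Mgst1, and quantile normalization gave 0.61 for Mgst1. Array weights gave 0.71 for Mgst2 at 3 h. The median change over members crossed 0 under some settings: it ranged from -0.11 to 0.47 at 24 h (0.20 in the fit reported), -0.03 to 0.51 at 144 h (0.17), -0.52 to 0.09 at 3 h (-0.09), -0.20 to 0.10 at 6 h against 3 h (-0.13), -0.03 to 0.35 between the air groups (0.25) and -0.23 to 0.25 for the change at 144 h minus that at 24 h (-0.05). At 6 h against air and at 24 h against 6 h it kept its sign. Without animals 18 and 22, changes at 24 h were above 0 for Gstm2 (0.51) and Gstm4 (0.06), against -0.16 and -0.35. No paired analysis was possible because the replicate numbers are animal numbers that no 2 groups share. Low signals limit what these arrays can show, as for the 8 UGT genes, none of which was above the array median on more than 1 array. Fits without animals 18, 19 and 22 were chosen after seeing the data.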
